A study of Mus musculus with 40 samples.

Results

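The genes of MHC class II presentation were followed in mouse haematopoietic stem cells (HSCs) and in the multipotent progenitors they give rise to (MPPs), in KO mice with a targeted Hira gene and in WT mice. The group holds 10 genes (H2-Aa, H2-Ab1, H2-Eb1, Cd74, H2-DMa, H2-DMb1, H2-DMb2, H2-Oa, H2-Ob and Ciita), taken by gene symbol, and all 10 were listed in each of the 6 expression tables, which hold 16344 to 26640 genes each. HIRA is a histone chaperone: it deposits the replacement histone H3.3 independently of replication. The 40 libraries fall into 12 groups of adult C57BL/6 bone marrow cells, a KO and a WT group for each of 6 sorted populations. In the first cohort total HSCs and total MPPs were taken 1 week after the first of 2 doses of 20 µg poly(I:C), 2500 cells per library, with 4 KO and 4 WT libraries per cell type. Mice of the H2B-GFP cohort drank water with doxycycline (2 mg/ml) and sucrose (10 mg/ml) for 6 weeks, which was followed by 2 doses of 20 µg poly(I:C), and cells were sorted as GFP-high or GFP-low after 17 days of chase, when 15 days had passed since the last dose. Each of these 4 populations has 3 KO and 3 WT libraries. The alleles named for the H2B-GFP mice are Mx1-Cre, Hirafl/fl, Rosa26-M2rtTA and TetOP-H2B-GFP. The alleles named cover neither the WT mice nor the first cohort, and the protocol does not say separately that WT mice were given poly(I:C). The libraries of a group are described as biological replicates, and animals are not identified, so p-values measure the spread between libraries. Mx1-Cre is an interferon-driven recombinase, and poly(I:C), the double-stranded RNA that switches it on, induces interferon by itself in whichever mice receive it.

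MHC class II molecules carry peptides from the endosome to the cell surface, where CD4+ T cells read them. Each is a pair of an alpha and a beta chain: H2-Aa with H2-Ab1 makes the I-A molecule, and H2-Eb1 encodes the beta chain of I-E, which C57BL/6 mice do not assemble because their alpha chain gene is defective. Cd74, the invariant chain, holds the groove closed until the endosome, H2-DM (H2-DMa with H2-DMb1 or H2-DMb2) swaps its remnant for a peptide, and H2-DO (H2-Oa with H2-Ob) restrains H2-DM. Ciita encodes the coactivator that switches the family on, is itself induced by interferon gamma, with IRF1 on its promoter, and has no DNA-binding domain of its own: it acts through the factors RFX, CREB and NF-Y that sit on the X and Y boxes of these promoters. Class II is best known from B cells, dendritic cells and macrophages, and is also found on blood stem and progenitor cells.

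Reads in genes numbered 17.77 to 31.88 M per library in the first cohort, against 5.819 to 9.569 M in libraries sorted by GFP, so low genes are less precise in the H2B-GFP cohort. Among the markers of the sorted cells, Slamf1 and Flt3 fell on the side of the cell labels, and not every HSC marker did. Slamf1, an HSC surface gene, had 5.20 to 12.6 FPKM (reads per kilobase of gene and per M reads) in HSC libraries and 0.0754 to 0.821 FPKM in MPP libraries, and Flt3, an MPP receptor, had 18.7 to 60.2 FPKM in MPPs and 1.49 to 6.98 FPKM in HSCs. Hlf, a transcription factor gene of HSCs, averaged 26.0 FPKM in KO and 28.8 FPKM in WT total HSCs, and 41.7 FPKM in KO and 54.8 FPKM in WT total MPPs, so it stood higher in the MPP table, as did Procr, tables being scaled separately. Hira RNA did not separate the genotypes. It had 0.720 to 1.45 FPKM in KO and 0.840 to 1.66 FPKM in WT libraries of the first cohort, and 1.07 to 2.74 FPKM in KO and 1.22 to 3.22 FPKM in WT libraries of the H2B-GFP cohort (limma, adjusted p = 0.692 to 0.965). The labels do not say which part of the gene the loxP sites flank, and a value over the whole gene does not test a deletion of part of it, so KO and WT below mean the libraries labelled so.

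The 8 members whose names begin with H2 lie within chromosome 17 (GRCm38, GENCODE M21), from H2-Oa at chr17:34092340-34095234 to H2-Eb1 at chr17:34305867-34316674. Ciita is on chromosome 16 (chr16:10480059-10528418), 8.35 Mb from Hira (chr16:18877037-18970309). Whether the libraries keep the strand is not stated. H2-Eb1 overlaps the antisense gene Gm20513, H2-Oa overlaps the antisense gene BC051537, H2-DMa overlaps Brd2 and 3 other annotated genes, and Ciita overlaps Dexi, so reads of these pairs may not be separable. The longest transcripts of H2-DMb1 and H2-DMb2 are 94.8% identical over 1211 aligned bases, so the split of reads between this pair is uncertain too.

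The promoter sequences were read for short motifs in the members that had a window, which H2-Ab1, Cd74 and Ciita did not. RefSeq promoters (GRCm38.p6, 250 bases before to 50 after the start) were matched for 7 members, with 8 windows. Those of H2-DMa (from 34122582 and 34125268) and H2-DMb2 (from 34144999) lie wholly inside their annotated genes, and H2-DMa overlaps Brd2. Whether these windows are the promoters used in these cells was not tested. The letters CCAAT, the core bound by NF-Y, were searched on both strands together with GCAAC, part of the X box read by RFX. CCAAT stood in 7 of the 8 windows and GCAAC in 5, against 37.4% and 35.2% of all 32851 promoter windows, and 13.7% held both. In 4 windows GCAAC was followed on the same strand, after 25 to 28 bases, by ATTGG (the reverse complement of CCAAT). That arrangement, with its spacing set after these 4 were read, occurred in 31 of the 32851 windows (0.0944%), and the 4 are printed 5′ to 3′ with the matches in capitals because they compare an alpha chain, a beta chain and both H2-DO chains. No window of the H2-DM genes held this exact arrangement, and near matches to GCAAC were not searched. H2-DMb1 reads gtaactgatgatgct and H2-DMb2 ttaaccgatgatgct ahead of ATTGG, where H2-Eb1 reads GCAACtgatgatgct. The exact search therefore does not show that these 2 windows lack an X box. H2-Eb1 has a further CCAAT on its own strand.
H2-Aa, chr17:34287774-34288073, minus strand: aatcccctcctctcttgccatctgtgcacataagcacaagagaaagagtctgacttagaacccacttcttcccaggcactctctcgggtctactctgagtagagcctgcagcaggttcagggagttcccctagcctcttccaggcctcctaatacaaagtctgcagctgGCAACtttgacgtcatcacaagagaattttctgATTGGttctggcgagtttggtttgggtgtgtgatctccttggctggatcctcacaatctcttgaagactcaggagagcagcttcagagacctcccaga
H2-Eb1, chr17:34305617-34305916, plus strand: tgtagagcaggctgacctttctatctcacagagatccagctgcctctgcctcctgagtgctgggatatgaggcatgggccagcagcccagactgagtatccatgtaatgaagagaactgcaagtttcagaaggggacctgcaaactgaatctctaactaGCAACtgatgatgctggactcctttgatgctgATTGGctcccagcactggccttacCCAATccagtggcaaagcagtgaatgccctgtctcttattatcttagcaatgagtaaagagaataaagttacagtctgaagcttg
H2-Oa, chr17:34092129-34092428, plus strand: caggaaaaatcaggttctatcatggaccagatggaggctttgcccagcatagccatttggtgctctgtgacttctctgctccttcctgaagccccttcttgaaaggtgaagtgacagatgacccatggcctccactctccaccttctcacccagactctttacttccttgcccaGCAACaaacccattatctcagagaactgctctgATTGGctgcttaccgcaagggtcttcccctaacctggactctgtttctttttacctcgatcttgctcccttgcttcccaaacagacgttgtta
H2-Ob, chr17:34238655-34238954, plus strand: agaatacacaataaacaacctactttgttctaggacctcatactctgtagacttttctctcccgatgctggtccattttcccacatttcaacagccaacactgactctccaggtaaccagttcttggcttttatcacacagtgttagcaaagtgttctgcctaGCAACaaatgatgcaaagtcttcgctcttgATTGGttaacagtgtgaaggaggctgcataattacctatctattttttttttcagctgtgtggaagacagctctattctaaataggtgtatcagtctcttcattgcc
GCAAC began 81 bases before the start in H2-Aa, and 28 bases lay between the matches there. In H2-Eb1 it began 91 bases before the start, with 27 bases between. In H2-Oa the distance was 76 bases and the spacing 28, and in H2-Ob 87 and 25. The 4 genes did not share a direction in KO cells below: the mean difference of H2-Aa and H2-Eb1 was negative in all 6 populations, while H2-Oa and H2-Ob had differences of both signs.

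The question of each comparison was how class II genes stood in KO against WT cells of the same sorted population. Without a block by replicate number, no class II gene passed limma's test in any of the 6 populations (log2(FPKM + 1), 2-sided, p adjusted by Benjamini-Hochberg across the table and set against 0.05). With a block by replicate number 5 member comparisons passed: H2-Eb1 and Cd74 in GFP-high HSCs, and H2-Aa, H2-Eb1 and Cd74 in GFP-low MPPs (limma, adjusted p = 0.0159 to 0.0373). The share of all genes that passed with the block was 0.0184% (2 of 10850, which are these 2 members) in GFP-high HSCs. It was 0.49% (52 of 10621) in GFP-low MPPs, 0.0729% in total HSCs, 0.984% in total MPPs and 0% in the other populations. Over all tested genes, most KO and WT libraries of one number did not deviate together (correlation over 0.1 in 4 of 20 pairs). The chains and Cd74 did vary with the number in the H2B-GFP cohort. Library 3 was the lowest in 8 of 8 groups there for H2-Aa, H2-Ab1 and H2-Eb1, and in 7 for Cd74. The labels do not say that a number marks a shared litter, batch or day, so the values below are without the block. Which of the 2 fits is the right one for these genes was not tested. Of the 10 members 9 were tested in every population, and Ciita lay below the required 1 FPKM. The share of all tested genes that passed was 0.124% in total HSCs, 0.108% in total MPPs, 0.0276% in GFP-high HSCs, 0.32% in GFP-low MPPs and 0% in both other populations. The KO minus WT differences of the members were mostly negative. In total HSCs 8 of 9 were negative (50.2% of all tested genes), 3 were lower in KO at an unadjusted p under 0.05 (5.21%) and 2 were lower without overlap of the groups (3.39%). In total MPPs 7 were negative (49.6%), 1 was lower at that p (7.79%) and 1 lower without overlap (4.84%). In GFP-high HSCs 7 were negative (50.4%), 4 lower at that p (4.72%) and 0 lower without overlap (7.47%). The tested genes without overlap in the first cohort were H2-DMa and H2-DMb1 in total HSCs and H2-Eb1 in total MPPs. Ciita, which was not tested, is given below. GFP-low HSCs had 7 negative (50.8%), 3 lower at that p (3.9%) and 2 lower without overlap (6.42%). GFP-high MPPs had 8 negative (49%), 4 lower at that p (3.48%) and 0 lower without overlap (6.59%). GFP-low MPPs had 9 negative (49.6%), 3 lower at that p (6.16%) and 0 lower without overlap (9.33%). No member was higher in KO at an unadjusted p under 0.05 in any population, where 4.87% of all genes were in total HSCs, 8.77% in total MPPs, 5.64% in GFP-high and 4.67% in GFP-low HSCs, and 3.61% in GFP-high and 6.12% in GFP-low MPPs.

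The members' median log2 difference was -0.31 in total HSCs, -0.24 in total MPPs, -0.26 in GFP-high and -0.30 in GFP-low HSCs, and -0.21 in GFP-high and -0.46 in GFP-low MPPs, while the median of all tested genes lay between -0.0042 and 0.0043. Taken by role, the members had unlike medians. The 4 genes of the chains and the invariant chain (H2-Aa, H2-Ab1, H2-Eb1 and Cd74) had medians of -1.04 in GFP-high and -0.86 in GFP-low HSCs, -1.20 in GFP-high and -1.30 in GFP-low MPPs, and -0.45 and -0.40 in total HSCs and total MPPs. The 5 genes of H2-DM and H2-DO had medians of -0.27 to -0.10. H2-Aa, H2-Ab1, H2-Eb1 and Cd74 (4 of 4) differed by -0.5 or less in each H2B-GFP population, and 0 of 9 members did so in total HSCs or total MPPs. Such a difference was found in 2.26% of all genes in GFP-high and 3.31% in GFP-low HSCs, in 2.37% in GFP-high and 3.52% in GFP-low MPPs, and in 1.22% and 4.3% in total HSCs and total MPPs.

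**Figure D1:**
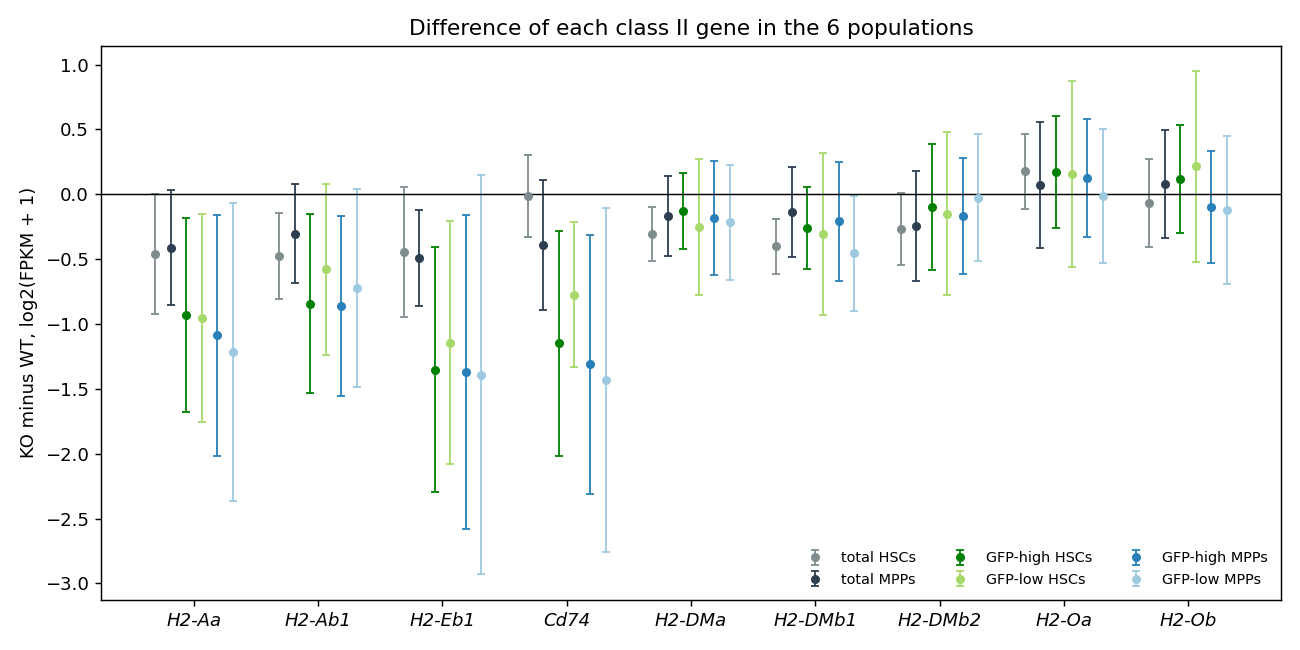
KO minus WT difference of the 9 tested class II genes on the log2(FPKM + 1) scale in each of the 6 populations, with 95% intervals from limma (4 KO and 4 WT libraries in total HSCs and MPPs, 3 and 3 in the others). The 4 genes on the left reach -0.58 to -1.43 in the H2B-GFP populations, while H2-Oa and H2-Ob lie between -0.12 and 0.22.

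In GFP-high HSCs, the cells of the H2B-GFP cohort that had diluted their label least, the chains of class II were lower in KO libraries by 0.84 to 1.35 on the log2 scale. H2-Eb1 had 34.9, 27.0 and 11.4 FPKM in KO libraries, against 83.5, 70.8 and 33.0 FPKM in WT libraries. The top KO library lay just above the bottom WT library, and the other KO libraries lay below every WT library. The log2 difference was -1.35 (95% interval -2.29 to -0.41, limma, adjusted p = 0.336). H2-Aa had 39.1, 31.4 and 14.6 FPKM in KO, against 67.2, 53.2 and 37.0 FPKM in WT libraries, with 1 KO library inside the WT range (log2 -0.93, -1.68 to -0.19, adjusted p = 0.386). H2-Ab1, its partner, had 35.4, 35.6 and 19.2 FPKM in KO and 79.7, 52.8 and 34.7 FPKM in WT libraries. Its groups overlapped at the bottom of the WT range (log2 -0.84, adjusted p = 0.394).

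In GFP-low HSCs, which had divided more during the chase, the same 3 genes were lower in KO by 0.58 to 1.14 on the log2 scale. H2-Aa had 26.9, 21.3 and 9.02 FPKM in KO libraries, against 47.2, 31.1 and 28.2 FPKM in WT libraries, and the groups did not overlap, which was so, lower in KO, for 6.42% of all genes tested there. Its log2 difference was -0.95 (-1.75 to -0.15, limma, adjusted p = 0.538). H2-Eb1 had 26.7, 22.1 and 8.37 FPKM in KO and 59.7, 39.0 and 25.7 FPKM in WT libraries. A single KO library stood above the lowest WT library (log2 -1.14, -2.08 to -0.21, adjusted p = 0.525). H2-Ab1 differed least, at 38.1, 38.7 and 20.2 FPKM in KO and 66.0, 45.9 and 34.0 FPKM in WT libraries (log2 -0.58, -1.24 to 0.08, adjusted p = 0.637).

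In GFP-high MPPs the WT libraries held the highest chain levels of the H2B-GFP cohort, and the KO libraries were lower by 0.86 to 1.37 on the log2 scale. H2-Eb1 had 48.0, 36.7 and 13.2 FPKM in KO libraries, against 131, 92.8 and 35.9 FPKM in WT libraries. Both genotypes spread widely, and the groups overlapped through 1 WT library (log2 -1.37, -2.58 to -0.16, limma, adjusted p = 0.649). H2-Aa had 41.8, 30.6 and 16.3 FPKM in KO and 95.5, 67.1 and 33.2 FPKM in WT libraries (log2 -1.09, adjusted p = 0.619). H2-Ab1 had 61.4, 46.1 and 28.8 FPKM in KO and 113, 80.3 and 55.7 FPKM in WT libraries (log2 -0.86, adjusted p = 0.579). For each of these genes it was the lowest WT library alone that fell below the highest KO library.

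GFP-low MPPs gave the widest 95% intervals of these 3 genes. H2-Eb1 had 39.1, 17.1 and 5.42 FPKM in KO libraries, against 87.0, 47.3 and 18.7 FPKM in WT libraries (log2 -1.39, -2.93 to 0.15, limma, adjusted p = 0.442). H2-Aa had 29.5, 15.8 and 7.12 FPKM in KO and 68.3, 32.6 and 21.3 FPKM in WT libraries (log2 -1.22, -2.36 to -0.07, adjusted p = 0.377). H2-Ab1 had 59.0, 33.2 and 26.9 FPKM in KO and 94.3, 63.0 and 41.0 FPKM in WT libraries (log2 -0.72, adjusted p = 0.425). The groups of all 3 genes overlapped. Across the H2B-GFP populations, all 12 KO libraries lay below the middle WT library of their population for H2-Aa, H2-Ab1, H2-Eb1 and Cd74 alike.

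Libraries differed in a regular way within each genotype too. The libraries numbered 3 were the lowest of their group in 8 of 8 H2B-GFP groups, KO and WT, for H2-Aa, H2-Ab1, H2-Eb1, H2-DMa and H2-DMb1, in 7 of 8 for Cd74, in 6 for Ciita, in 5 for H2-Oa and in 4 for H2-DMb2 and H2-Ob. Libraries numbered 1 were the highest in 8 of 8 groups for H2-Aa, H2-Eb1 and Cd74. Leaving out 1 library moved the difference of the chains or Cd74 by over 1.5 times in 13 of 16 H2B-GFP comparisons, and 16 of 16 stayed negative. In the order of GFP-high HSCs, GFP-low HSCs, GFP-high MPPs and GFP-low MPPs, H2-Eb1 then ran over -1.75 to -0.90, -1.45 to -0.67, -1.90 to -0.84 and -2.02 to -0.70. H2-Aa ran over -1.21 to -0.53, -1.25 to -0.51, -1.50 to -0.73 and -1.68 to -0.72, and H2-Ab1 over -1.14 to -0.55, -0.81 to -0.28, -1.12 to -0.57 and -1.04 to -0.43. Cd74 ran over -1.52 to -0.72, -0.98 to -0.53, -1.79 to -0.94 and -2.01 to -0.97. The value nearest 0 came without KO library 3 in 12 of the 16, and otherwise without WT library 1 (H2-Ab1 in GFP-high HSCs and GFP-low MPPs, Cd74 in GFP-low MPPs) or KO library 2 (Cd74 in GFP-low HSCs). The value farthest from 0 came without KO library 1 or WT library 3 in 16 of 16. Across all tested genes, libraries that carry the same label in different H2B-GFP populations deviated together in 34 of 36 pairs (correlation over 0.1, range -0.043 to 0.561). The labels do not say whether they come from the same mice. The 4 H2B-GFP comparisons were therefore not taken as 4 independent repeats of one result.

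**Figure D2:**
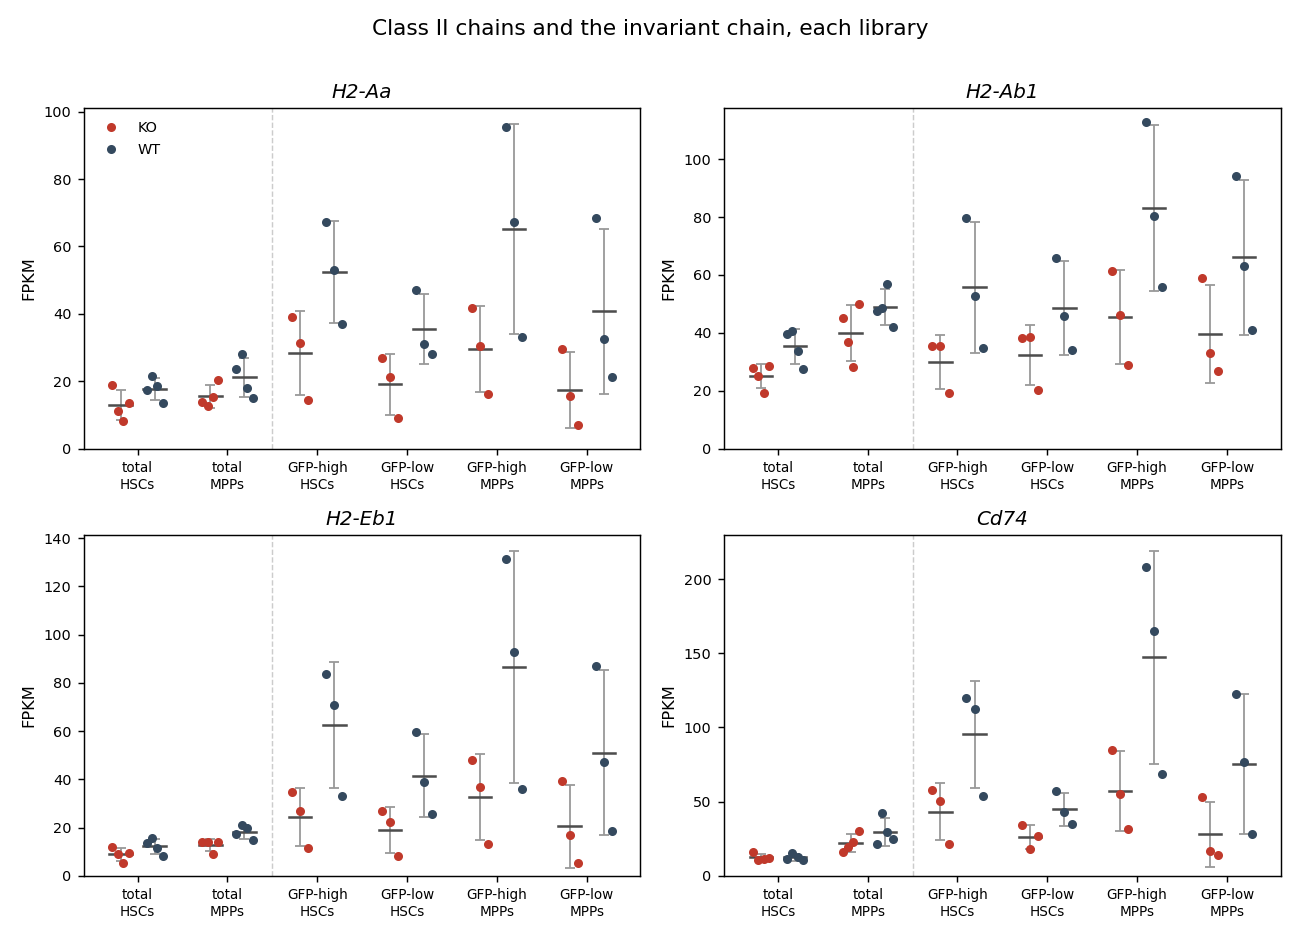
FPKM (y axis, linear, from 0) of H2-Aa, H2-Ab1, H2-Eb1 and Cd74 in each of the 40 libraries, by population, with KO in red at the left of WT in blue, and points in order of library number. Horizontal lines are group means and bars 1 SD (n = 4 in total HSCs and MPPs, n = 3 elsewhere). Cd74 reaches 208 FPKM in a WT library of GFP-high MPPs, and the KO libraries of that population hold 31.5 to 85.1 FPKM.

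In the first cohort, sampled 1 week after the first poly(I:C) dose, the chains stood 0.30 to 0.49 lower in KO on the log2 scale. H2-Eb1 in total MPPs had 14.2, 14.1, 8.97 and 14.0 FPKM in KO libraries, against 17.4, 21.2, 19.7 and 14.7 FPKM in WT libraries. These groups did not overlap, which was so, lower in KO, for 4.84% of all genes tested in total MPPs (log2 -0.49, -0.86 to -0.12, limma, adjusted p = 0.198). In total HSCs H2-Eb1 had 12.0, 8.84, 5.19 and 9.52 FPKM in KO and 13.6, 15.5, 11.7 and 8.27 FPKM in WT libraries, with overlap (log2 -0.44, adjusted p = 0.545). H2-Ab1 in total HSCs had 27.9, 25.0, 19.2 and 28.5 FPKM in KO and 39.5, 40.6, 33.7 and 27.5 FPKM in WT libraries, and 1 WT library lay inside the KO range (log2 -0.47, -0.80 to -0.14, adjusted p = 0.306). H2-Ab1 in total MPPs averaged 40.1 ± 9.65 FPKM in KO and 48.8 ± 6.18 FPKM in WT libraries (SD, n = 4 each). H2-Aa averaged 13.0 ± 4.50 FPKM in KO and 17.7 ± 3.25 FPKM in WT total HSCs, and 15.5 ± 3.43 FPKM in KO and 21.2 ± 5.84 FPKM in WT total MPPs. KO and WT values of H2-Aa overlapped in both cell types (adjusted p = 0.496 in HSCs and 0.337 in MPPs). In total HSCs H2-Aa and H2-Eb1 differed by -0.28 and -0.23 without KO library 3. In total MPPs H2-Ab1 differed by -0.15 without KO library 3, and H2-Aa by -0.27 and Cd74 by -0.20 without WT library 2.

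Cd74, the invariant chain, had differences of the size of the chains' in the H2B-GFP cohort and one near 0 in total HSCs. Its gene lies outside the class II cluster, on chromosome 18 (chr18:60803848-60812652, GRCm38). In total HSCs it had 15.7, 10.7, 11.3 and 11.7 FPKM in KO libraries, against 11.1, 15.5, 12.8 and 10.5 FPKM in WT libraries, a log2 difference of -0.01 with a 95% interval of -0.33 to 0.31, whose sign changed with the library left out. Total MPPs averaged 22.1 ± 6.09 FPKM in KO and 29.6 ± 9.35 FPKM in WT libraries (SD, n = 4 each), with overlap (log2 -0.39, limma, adjusted p = 0.419). In GFP-high HSCs Cd74 had 58.1, 50.1 and 21.7 FPKM in KO and 119.5, 113 and 53.6 FPKM in WT libraries. Here 1 KO library entered the WT range (log2 -1.15, -2.02 to -0.28, adjusted p = 0.370). In GFP-low HSCs it had 34.0, 17.9 and 26.5 FPKM in KO and 56.9, 42.9 and 34.8 FPKM in WT libraries (log2 -0.77, -1.33 to -0.22, adjusted p = 0.468). All 3 KO libraries of Cd74 lay below all 3 WT libraries there, which was so for 6.42% of all tested genes. In GFP-high MPPs it had 85.1, 55.4 and 31.5 FPKM in KO and 208, 165 and 68.4 FPKM in WT libraries (log2 -1.31, -2.31 to -0.31, adjusted p = 0.556). In GFP-low MPPs it had 53.1, 16.5 and 14.0 FPKM in KO and 122, 76.4 and 28.0 FPKM in WT libraries (log2 -1.43, -2.76 to -0.10, adjusted p = 0.368). Both MPP comparisons overlapped through the lowest WT library.

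The genes of H2-DM, which loads peptides, had smaller differences than the chains in the H2B-GFP cohort, and H2-DMa and H2-DMb1 were apart between genotypes in total HSCs. There H2-DMb1 had 25.7, 23.2, 24.1 and 21.7 FPKM in KO libraries, against 29.6, 30.0, 30.6 and 36.6 FPKM in WT libraries, and H2-DMa had 84.7, 81.5, 72.4 and 70.8 FPKM in KO, against 89.9, 102, 89.2 and 101 FPKM in WT libraries. Neither gene's groups overlapped, which was so, lower in KO, for 3.39% of all genes tested in total HSCs. The log2 difference was -0.40 (-0.62 to -0.19, limma, adjusted p = 0.171) for H2-DMb1 and -0.31 (-0.51 to -0.10, adjusted p = 0.289) for H2-DMa. H2-DMb2, the scarcer beta chain, had 3.82, 3.01, 4.03 and 4.08 FPKM in KO and 3.86, 4.82, 4.66 and 5.46 FPKM in WT total HSCs. Its difference of -0.27 had an interval of -0.55 to 0.01. In total MPPs the 3 genes differed by -0.17 (H2-DMa), -0.14 (H2-DMb1) and -0.24 (H2-DMb2), with adjusted p of 0.562 to 0.705. In the H2B-GFP populations H2-DMa was -0.25 to -0.13, H2-DMb1 -0.46 to -0.21 and H2-DMb2 -0.17 to -0.03 on the log2 scale, and all 12 comparisons overlapped. H2-DMb1 in GFP-low MPPs was the furthest of these, at 25.8, 19.6 and 14.2 FPKM in KO and 28.2, 28.9 and 23.8 FPKM in WT libraries (log2 -0.46, -0.90 to -0.01, adjusted p = 0.395). Leaving out KO library 3 ended the negative sign of 1 or 2 of the 3 genes in each of the 4 populations: H2-DMa and H2-DMb1 then differed by 0.01 and 0.04 in GFP-low HSCs and by 0.04 and 0.02 in GFP-high MPPs, and H2-DMb2 by 0.14 in GFP-high HSCs and 0.04 in GFP-low MPPs. H2-DMb2 rested on 8 to 76 reads per library in the H2B-GFP cohort.

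H2-Oa and H2-Ob, the chains of the H2-DM inhibitor H2-DO, gave log2 differences of both signs and near 0, several of which turned when 1 library was left out or the scaling changed. H2-Oa differed by 0.18 in total HSCs, 0.07 in total MPPs, 0.17 in GFP-high and 0.16 in GFP-low HSCs, and 0.12 in GFP-high and -0.01 in GFP-low MPPs. In GFP-high MPPs, where the chains were far apart, it had 27.7, 23.2 and 15.2 FPKM in KO and 20.8, 18.8 and 19.2 FPKM in WT libraries, and the WT values lay within the KO range. H2-Ob differed by -0.07, 0.08, 0.12, 0.22, -0.10 and -0.12 in the same order of populations. In total MPPs, where it was most abundant, H2-Ob had 45.3, 48.4, 30.2 and 30.3 FPKM in KO and 29.0, 45.5, 32.9 and 37.0 FPKM in WT libraries. The 95% intervals of these 12 differences reached from -0.69 to 0.95, and each held 0.

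Ciita, the class II coactivator, was scarce in every group and its mean was lower in KO in all 6 populations. In total MPPs it had 0.363, 0.369, 0.0488 and 0.252 FPKM in KO libraries, against 0.643, 0.646, 0.694 and 0.468 FPKM in WT libraries, with no overlap. That was so, lower in KO, for 4.84% of the genes tested there, which do not include Ciita. The exact permutation test of the labels (2-sided) gave p = 0.0286, the smallest that 4 against 4 allows, and 0.171 when adjusted over the 6 populations. In total HSCs Ciita had 0.491, 0.193, 0.259 and 0.176 FPKM in KO and 0.523, 0.424, 0.291 and 0.276 FPKM in WT libraries, which overlapped (exact permutation p = 0.257). In GFP-high HSCs it had 0.771, 0.552 and 0.468 FPKM in KO and 0.943, 0.911 and 0.708 FPKM in WT libraries. In GFP-low HSCs it had 0.401, 0.738 and 0.277 FPKM in KO and 0.752, 0.649 and 0.668 FPKM in WT libraries. In both, 1 KO library lay above the lowest WT library. In GFP-high MPPs Ciita had 0.665, 0.672 and 0.218 FPKM in KO and 1.20, 1.04 and 0.443 FPKM in WT libraries, and in GFP-low MPPs 0.537, 0.112 and 0.362 FPKM in KO and 1.17, 0.654 and 0.351 FPKM in WT libraries. All 4 H2B-GFP comparisons overlapped (exact permutation p = 0.2 to 0.3, where 3 against 3 cannot go below 0.1). Ciita rested on 8 to 173 reads per library. Its KO mean was 0.421 to 0.739 times its WT mean.

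**Figure D3:**
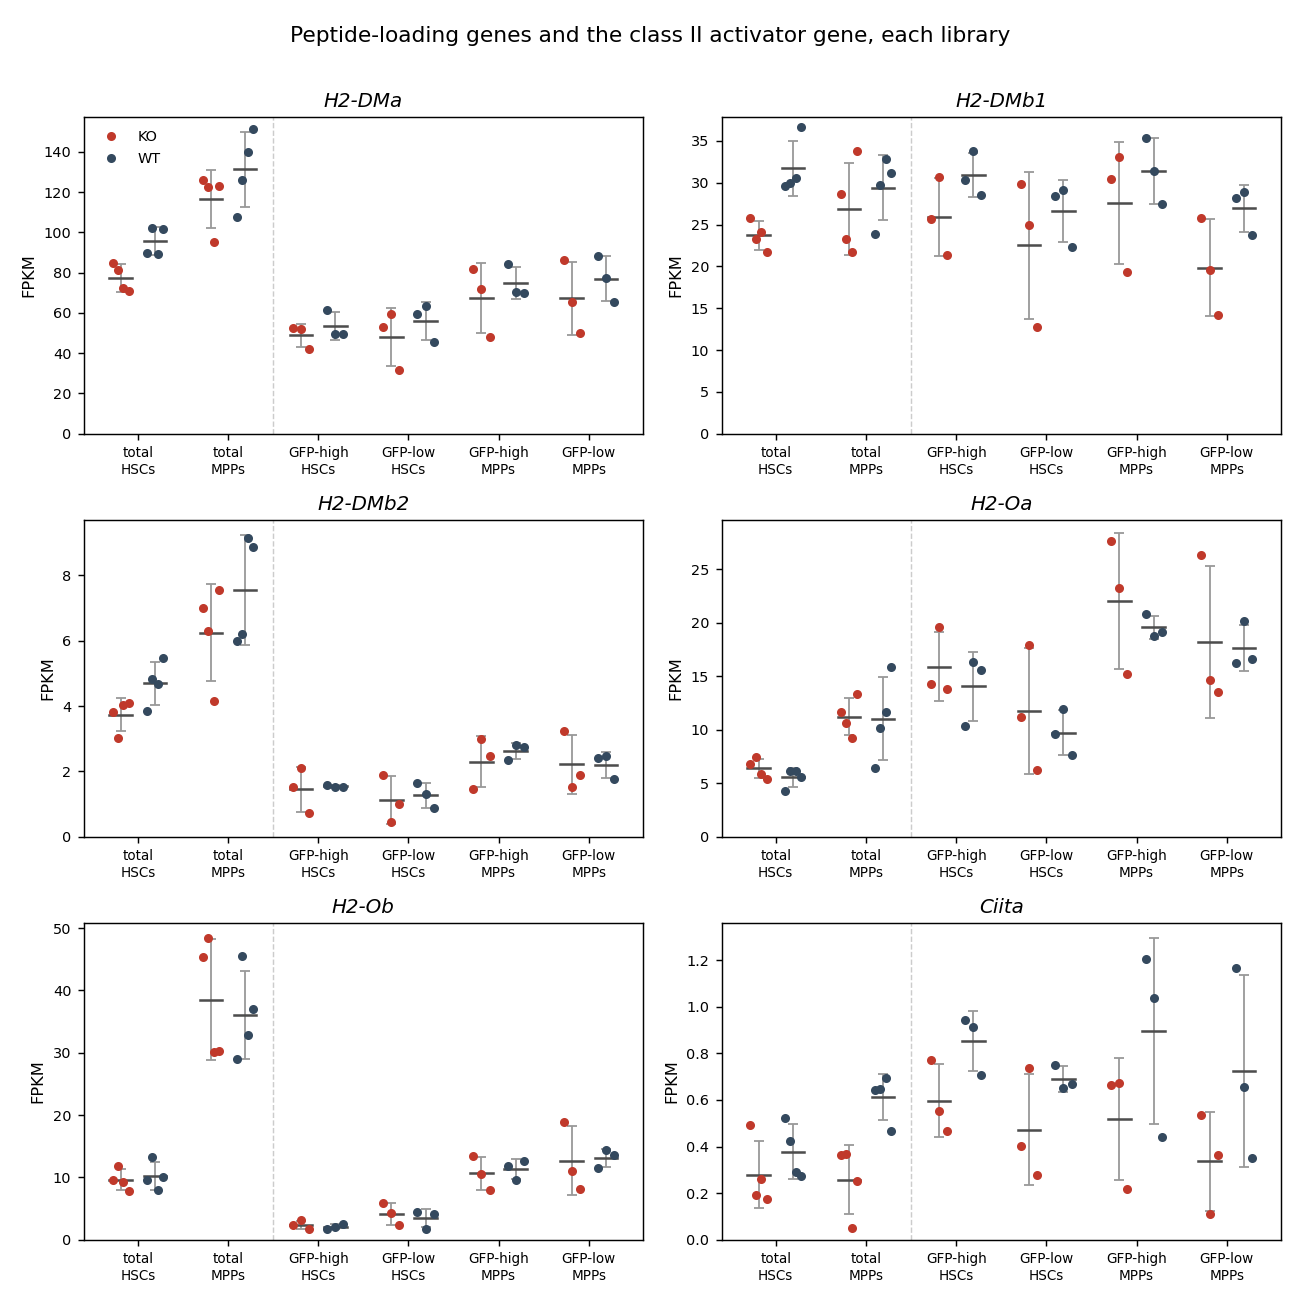
FPKM (y axis, linear, from 0, its own scale in each panel) of H2-DMa, H2-DMb1, H2-DMb2, H2-Oa, H2-Ob and Ciita in each of the 40 libraries, with KO in red at the left of WT in blue, and lines and bars for the mean and 1 SD (n = 4 in total populations, n = 3 elsewhere). The KO and WT points of H2-DMa and H2-DMb1 are apart in total HSCs, those of Ciita in total MPPs, and those of H2-Oa and H2-Ob overlap in each population.

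Whether the KO difference itself varied between populations was tested for 5 pairs. No member passed in any pair (limma, smallest adjusted p = 0.771), against 0.0076% of all genes for total MPPs against total HSCs and 0% for each of the other 4 pairs. The smallest unadjusted p among the members was 0.174, for H2-DMb1 in total MPPs against total HSCs. For Cd74 the difference in total MPPs minus that in total HSCs was -0.38, with an interval of -0.98 to 0.23. For GFP-low against GFP-high HSCs the members' differences of differences lay between -0.13 and 0.38, and for GFP-low against GFP-high MPPs between -0.25 and 0.14. For these pairs of GFP classes the 95% intervals reached from -2.17 to 2.13 for the chains and Cd74 and from -0.91 to 0.97 for the H2-DM and H2-DO genes. For GFP-high MPPs against GFP-high HSCs the members lay between -0.22 and 0.05, and for GFP-low MPPs against GFP-low HSCs between -0.66 and 0.12. The farthest from 0 was Cd74 in the latter pair, at -0.66 with an interval of -2.22 to 0.91. Libraries of the same label deviated together (correlation over 0.1) in 34 of 36 pairs across H2B-GFP populations, and in 4 of 8 between total HSCs and total MPPs. With a block for genotype and number no member passed either (limma, smallest adjusted p = 0.688 over the 5 pairs). The intervals of the chains and Cd74 were then -0.45 to 1.21 between the HSC classes and -0.66 to 0.48 between the MPP classes. The larger differences of the H2B-GFP cohort beside those of the first cohort were not tested, since cohort, sampling time and annotation changed together.

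The levels ran in a loose order that, being scaled within each population, was not tested between populations. Cd74 averaged 57.3 ± 26.9 FPKM in KO and 147 ± 71.6 FPKM in WT GFP-high MPPs (SD, n = 3 each), its 2 extremes being the WT cells of that population and the KO total HSCs at 12.4 ± 2.27 FPKM. H2-Aa, H2-Ab1 and H2-Eb1 had the same groups at the top and the bottom of their order. The lowest means were 13.0 ± 4.50 FPKM for H2-Aa, 25.2 ± 4.25 FPKM for H2-Ab1 and 8.89 ± 2.82 FPKM for H2-Eb1 (SD, n = 4 each). Of the 11 steps between neighbours in the order of the 12 groups, 11 were within the larger SD of the pair for H2-Aa, H2-Ab1, H2-DMb1 and Ciita, 10 for Cd74 and H2-Oa, 9 for H2-Eb1, H2-DMa and H2-Ob, and 7 for H2-DMb2. H2-DMa and H2-Ob were highest in total MPPs. H2-Ob averaged 38.5 ± 9.69 FPKM in KO and 36.1 ± 7.04 FPKM in WT total MPPs, and 2.39 ± 0.694 FPKM in KO and 2.10 ± 0.386 FPKM in WT GFP-high HSCs. Between genes, on this per-length scale, H2-DMb2 stood at 2.30 ± 0.781 FPKM in KO and 2.64 ± 0.247 FPKM in WT GFP-high MPPs, far below the other beta chain H2-DMb1 at 27.6 ± 7.28 FPKM in KO and 31.4 ± 3.94 FPKM in WT cells.

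Within groups the members did not vary as one. Deviations of log2(FPKM + 1) from the mean of each population and genotype were correlated over libraries, as a description without a test, because libraries share preparation, scaling and perhaps mice. In the 24 libraries of the H2B-GFP cohort H2-Aa and H2-Eb1 gave Pearson's r of 0.98, H2-Aa and H2-Ab1 0.95, and H2-Eb1 and Cd74 0.89. H2-DMa followed the chains (0.85 to 0.87), and H2-DMb1 did so at 0.77 to 0.82. H2-Oa went more with H2-DMa (0.75) and H2-DMb1 (0.79) than with the chains (0.50 to 0.53), and H2-DMb2, with few reads, reached 0.34 to 0.36 with the chains. In the 16 libraries of the first cohort H2-Ab1 and H2-Eb1 gave 0.87 and H2-DMa and H2-Oa 0.83, while H2-DMa gave -0.13 to 0.34 with the chains. Ciita gave 0.73 over all 40 libraries with the mean of the chains and Cd74, with 0.78 in the H2B-GFP cohort and 0.51 in the first cohort.

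**Figure D4:**
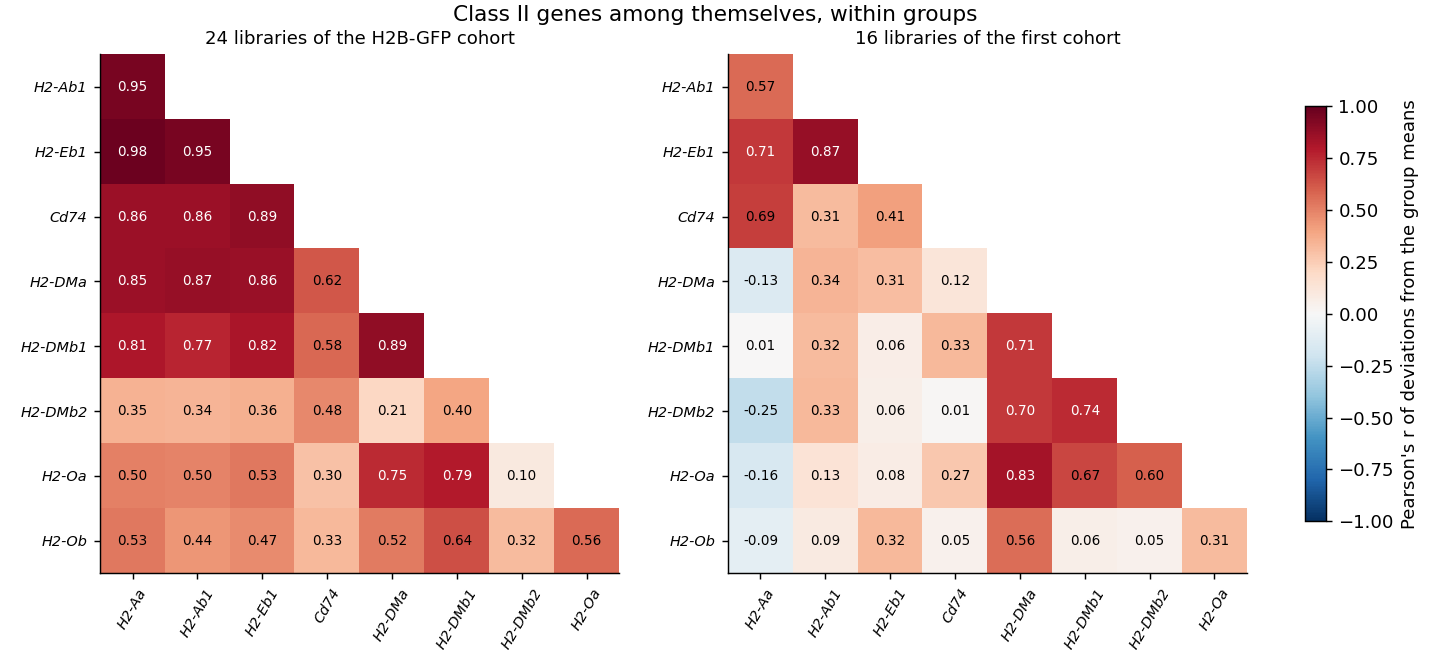
Pearson's r between class II genes over the 24 libraries of the H2B-GFP cohort (left) and the 16 libraries of the first cohort (right), computed on deviations of log2(FPKM + 1) from the mean of each population and genotype, with each r written in its square. H2-Aa, H2-Ab1 and H2-Eb1 reach 0.95 to 0.98 with each other on the left and 0.57 to 0.87 on the right.

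The genes whose deviations were most like those of the chains and Cd74 were named from 9329 non-members tested in all populations, by the highest r over the 40 libraries. They were Tap1 (0.79), the peptide transporter of class I presentation, Igtp (0.77) and Iigp1 (0.73), interferon-inducible GTPases, Coro2a (0.75), Abcg3 (0.74), Pygm (0.74), the muscle glycogen phosphorylase, H2-Q5 (0.71), a class I gene, and Als2cl (0.70). In the H2B-GFP cohort their r was 0.77 to 0.89, and in the first cohort 0.02 to 0.54, so the likeness rests on the H2B-GFP libraries. Tap1 differed between KO and WT by -0.26 in total HSCs, -0.19 in total MPPs, -0.27 in GFP-high and -0.47 in GFP-low HSCs, and -0.52 in GFP-high and -0.57 in GFP-low MPPs on the log2 scale. Iigp1 differed by -0.43, -0.24, -0.97, -1.05, -0.60 and -0.69 in the same order. Pygm, in contrast, had 0.29, -0.07, 0.24, -0.08, 0.08 and -0.36. None of the 8 genes passed the test in any population.

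Among genes of the route from interferon gamma to Ciita, 0 of 6 passed limma's test in each population. Irf2, a relative of Irf1 that also binds the Ciita promoter, came nearest. In GFP-low MPPs it averaged 13.3 ± 0.723 FPKM in KO and 18.9 ± 0.935 FPKM in WT libraries (SD, n = 3 each, log2 -0.48, limma, adjusted p = 0.129). Its ranges were 12.6 to 14.0 FPKM in KO and 18.1 to 20.0 FPKM in WT libraries. They did not overlap, which was so, lower in KO, for 9.33% of all genes tested there. Its differences ran over -0.48 to -0.12 in the 6 populations. Irf1, which binds the Ciita promoter, differed by -0.38 to -0.15, negative in all 6. The receptor chains and kinases did not share one sign: Ifngr1 differed by 0.04 to 0.33, Jak1 ranged from -0.38 to 0.02, and Ifngr2 and Jak2 lay between -0.32 and 0.22. At an unadjusted p under 0.05, 3 genes of this list were lower and 1 was higher in KO in GFP-low MPPs (6.16% and 6.12% of all tested genes), and 0 to 2 were lower (3.48% to 7.79%) and 0 higher (3.61% to 8.77%) in each other population.

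The list of class II transcription factors gave 0 of 9 past the test in each population, of which 8 could be tested in total HSCs. The subunits of RFX stood at low levels in both genotypes. Rfx5 averaged 2.81 FPKM in KO and 3.95 FPKM in WT GFP-high HSCs, its largest difference (-0.37), and Rfxank lay within -0.10 to 0.11 in all populations. Nfya, an NF-Y subunit, differed by -0.43 in GFP-low MPPs (limma, adjusted p = 0.310). Spi1 (PU.1) averaged 21.2 ± 8.07 FPKM in KO and 36.3 ± 6.92 FPKM in WT total MPPs (log2 -0.81, adjusted p = 0.168), and differed by 0.10 to 0.29 in the other populations. Irf8 differed by -0.20 to 0.57, Nfyb by -0.04 to 0.27, Nfyc by -0.13 to 0.22 and Rfxap by -0.22 to 0.25. At an unadjusted p under 0.05, 1 gene was lower in KO in total MPPs (Spi1, where 7.79% of all tested genes were) and 1 in GFP-low MPPs (Nfya, 6.16%), and 0 genes in the others.

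The endosomal enzymes that cut antigen and the invariant chain gave 0 of 6 past the test in each population, with differences of both signs. Ctss, cathepsin S, which trims the invariant chain, had a negative difference in all 6. In GFP-high MPPs it ranged over 32.3 to 45.0 FPKM in KO and 51.6 to 69.6 FPKM in WT libraries, with no overlap (log2 -0.68, limma, adjusted p = 0.470). GFP-low MPPs did not overlap either, at 17.99 to 33.1 FPKM in KO and 37.8 to 57.5 FPKM in WT libraries (log2 -0.76, adjusted p = 0.268). Of all tested genes, 6.59% in GFP-high and 9.33% in GFP-low MPPs were lower in KO without overlap. Elsewhere Ctss differed by -0.76 in GFP-high and -0.36 in GFP-low HSCs, -0.32 in total HSCs and -0.56 in total MPPs. Ifi30, the thiol reductase GILT, pointed the other way in total MPPs, where it averaged 27.9 ± 6.31 FPKM in KO and 9.52 ± 3.74 FPKM in WT libraries (log2 1.52, adjusted p = 0.0528). In GFP-low MPPs it averaged 30.9 ± 5.97 FPKM in KO and 16.9 ± 0.821 FPKM in WT libraries (log2 0.82, adjusted p = 0.0858). Lgmn (legumain) differed by 0.10 to 0.72 and Ctsl (cathepsin L) by 0.02 to 0.41, positive in all 6 populations for both. Ctsd (cathepsin D) differed by -0.31 to -0.02. At an unadjusted p under 0.05, 0 or 1 of the 6 were lower and 1 to 3 were higher in KO in each population, against 3.48% to 7.79% and 3.61% to 8.77% of all tested genes.

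**Figure D5:**
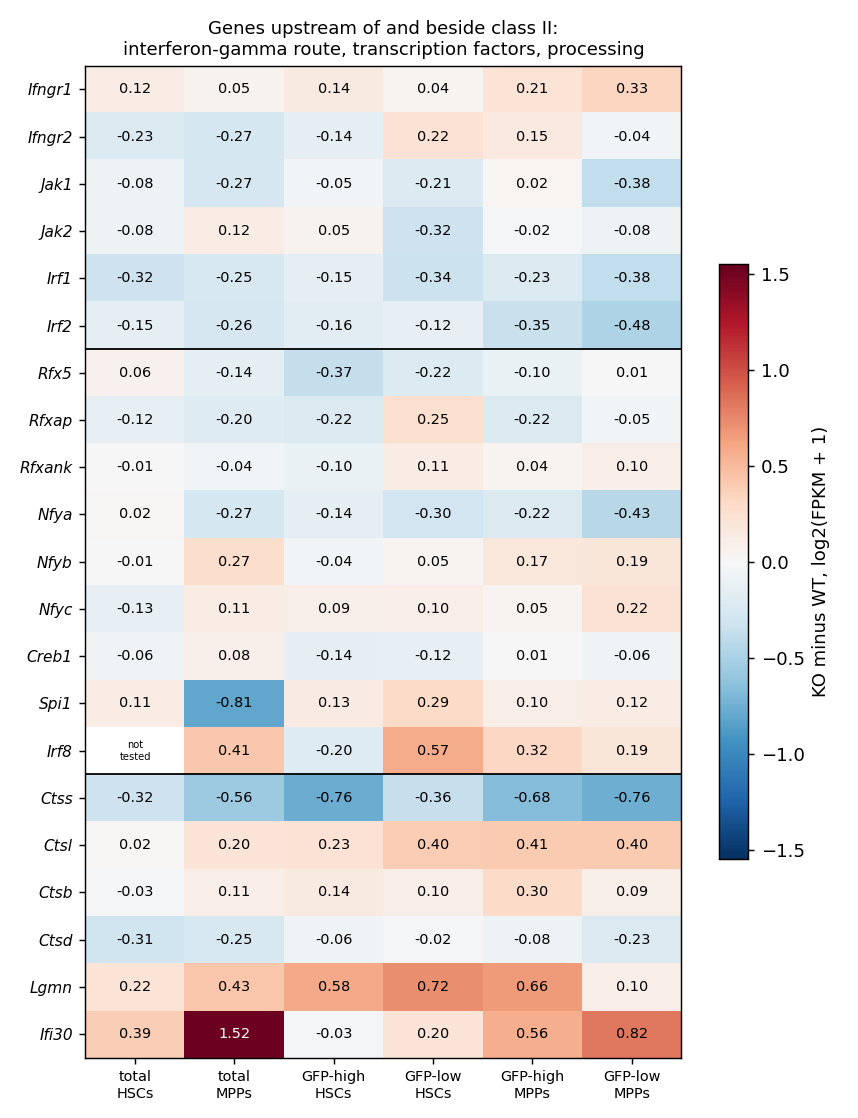
KO minus WT difference on the log2(FPKM + 1) scale (colour and number) of 21 genes, with the interferon-gamma route at the top, the transcription factors in the middle and the endosomal enzymes at the bottom, in the 6 populations. Irf1, Irf2 and Ctss are negative in all 6 columns, and Ifi30 reaches 1.52 in total MPPs.

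Other genes of class II were rare. H2-Eb2 averaged 0.0692 to 0.543 FPKM over the 12 groups, and H2-Ea-ps, the defective alpha chain gene, was listed in GFP-high MPPs alone (0 FPKM in KO and 0.0527 FPKM in WT libraries). Of the genes of turnover and costimulation, Cd86, which costimulates T cells, averaged 0.841 FPKM in KO and 1.46 FPKM in WT total HSCs (log2 -0.44, limma, adjusted p = 0.494). Its difference was negative in each population (-0.47 to -0.29). Il10ra, a receptor chain for interleukin 10, averaged 2.85 FPKM in KO and 0.690 FPKM in WT GFP-high HSCs (log2 1.13, adjusted p = 0.271), and 7.45 FPKM in KO and 2.95 FPKM in WT GFP-low MPPs (log2 1.18, adjusted p = 0.277). Cd80, Cd40 and March1, a ligase that removes class II from the surface, averaged at most 0.248 FPKM in any group, and 0 genes of this list passed in any population. March8, a relative of March1, differed by -0.28 to 0.26.

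Markers of cells rich in class II were set beside these values, since in sorted bulk cells fewer cells of a type and less RNA per cell cannot be told apart. Many markers lay below the filter: 2 or 3 of the 7 B cell, 1 of the 9 dendritic cell (Bst2), 4 to 8 of the 10 macrophage and 1 of the 5 T cell markers were tested in a population, and 0 of those tested passed limma's test. The B cell list of 7 genes was led by Cd79b, at 17.3 to 39.1 FPKM over the 40 libraries, while Ebf1 reached at most 0.240 FPKM, Pax5 0.413 FPKM, Ms4a1 0.162 FPKM and Cd79a 5.07 FPKM, and each of these 4 was at 0 in at least 1 library. Cd79a, a chain of the B cell receptor, averaged 0.280 FPKM in KO and 1.43 FPKM in WT GFP-high HSCs, 2.43 FPKM in KO and 0.516 FPKM in WT GFP-low HSCs, 1.92 FPKM in KO and 1.80 FPKM in WT GFP-high MPPs, and 1.69 FPKM in KO and 1.396 FPKM in WT GFP-low MPPs. In the first cohort it averaged 0.101 FPKM in KO and 0.532 FPKM in WT total HSCs, and 0.384 FPKM in KO and 1.75 FPKM in WT total MPPs. Its KO mean was thus below the WT mean in total HSCs, total MPPs and GFP-high HSCs and above it in the other 3 populations, and it passed the filter in the GFP-sorted MPPs alone (adjusted p = 0.961 and 0.980). The summed level of the list was 28.3 to 37.1 FPKM in KO and 35.8 to 37.1 FPKM in WT GFP-high HSCs, 33.9 to 44.0 FPKM in KO and 27.3 to 33.1 FPKM in WT GFP-low HSCs, 37.9 to 39.8 FPKM in KO and 36.2 to 46.1 FPKM in WT GFP-high MPPs, and 23.3 to 34.1 FPKM in KO and 33.2 to 43.1 FPKM in WT GFP-low MPPs. In GFP-low HSCs the lowest KO sum (33.9 FPKM) stood above the highest WT sum (33.1 FPKM). Most of the sum there was Cd79b, at a mean of 32.6 FPKM in KO and 28.0 FPKM in WT libraries. In the first cohort the sum was 19.8 to 26.0 FPKM in KO and 24.7 to 30.1 FPKM in WT total HSCs, and 24.3 to 29.2 FPKM in KO and 26.8 to 35.6 FPKM in WT total MPPs. Vpreb1, the surrogate light chain gene of B cell precursors, came nearest to the test of the B cell list, at 1.44 ± 0.483 FPKM in KO and 3.65 ± 1.15 FPKM in WT total MPPs (log2 -0.91, adjusted p = 0.0866). In GFP-high HSCs it averaged 1.09 ± 0.248 FPKM in KO and 3.29 ± 0.551 FPKM in WT libraries (log2 -1.03, adjusted p = 0.107).

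Dendritic cell markers were led by Bst2, an interferon-induced gene, at 57.8 to 119.6 FPKM, while Itgax reached 0.514 FPKM at most, Xcr1 0.122 FPKM, Batf3 0.257 FPKM and Zbtb46 1.23 FPKM. The sum of the 9 genes was 70.1 to 89.3 FPKM in KO and 89.7 to 101.8 FPKM in WT GFP-low MPPs, without overlap, and overlapped in the other populations. Among macrophage markers (10 genes) Adgre1 reached 1.60 FPKM, and C1qa ran over 0.399 to 12.0 FPKM. Higher levels were held by Cd68 (3.88 to 21.1 FPKM), C1qb (0.509 to 16.3 FPKM) and Hmox1 (2.60 to 12.5 FPKM). The sum of the macrophage markers was 36.8 to 42.7 FPKM in KO and 23.8 to 35.0 FPKM in WT total HSCs, without overlap, and overlapped in the other populations. C1qb, a complement gene, had the smallest p of that list in total HSCs (log2 0.82, adjusted p = 0.130). At an unadjusted p under 0.05, 4 of the 6 tested there were higher and 0 lower in KO (4.87% and 5.21% of all tested genes). In each other population 0 to 2 were higher (3.61% to 8.77%) and 0 or 1 lower (3.48% to 7.79%). T cell markers were led by Lck, and Cd3e did not pass 0.0769 FPKM. Over the 24 H2B-GFP libraries the summed B cell markers gave r = 0.61 with the mean of the chains and Cd74, macrophage markers 0.50 and dendritic cell markers 0.33, and over the 16 libraries of the first cohort they gave -0.43, 0.00 and -0.37. The part of such cells in the class II values was not tested.

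The sorted types differed in their own markers between genotypes by less than the test required. Kit, the stem cell factor receptor of stem and progenitor cells, averaged 154 ± 4.62 FPKM in KO and 111 ± 12.5 FPKM in WT GFP-high HSCs (log2 0.48, limma, adjusted p = 0.200), and differed by 0.32 to 0.48 in the 4 H2B-GFP populations. Flt3 averaged 34.4 ± 5.83 FPKM in KO and 54.1 ± 4.06 FPKM in WT total MPPs (log2 -0.65, adjusted p = 0.0573). The ranges of these groups did not overlap, which was so, lower in KO, for 4.84% of all genes tested there. Summed HSC markers gave r = 0.35 and MPP markers -0.03 with the chains and Cd74 over the H2B-GFP libraries.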

How the data were processed

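RNA of sorted cells was amplified with SMART-Seq2 and made into libraries with Nextera XT, per the labels' protocols. The authors deposited FPKM per gene in 6 tables, 1 for each population, with KO and WT libraries side by side, and each table was scaled on its own. The submitters' processing notes name STAR, HOMER, DESeq2 and mm10 without a role or a version, and the rest of the processing is not given in the sources used here. For 99.99% of genes the values in a table are whole reads times a factor per library, which gave the depths. No 2 libraries of a group agreed within sampling noise (lowest chi-square per gene 6.98), and every value column was used.

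KO and WT libraries of a table were compared on log2(FPKM + 1) with limma 3.58.1 (R 4.3.3, trended variance, 2-sided), over genes with at least 1 FPKM in 4 (first cohort) or 3 libraries (H2B-GFP cohort), with Benjamini-Hochberg adjustment over all tested genes and a threshold of 0.05. Fold changes on this scale understate the change of low genes, so 0.1 was tried as the added constant. Ciita, below the filter, was tested with exact permutation. Differences between populations used a model with a term for the table, also with a block for genotype and number. The fit was also run on simulated data, and the values from that run are not reported here. The other alternatives were no filter, a block by replicate number, libraries rescaled to one total, no variance trend, library quality weights and leaving out each library. Every member is named, as are the 8 genes with the highest correlation with the chains and Cd74. The rule for the gene lists named the 2 with the smallest p in a comparison. It was followed for the pathway lists and in part for the cell markers, and Rfxank, Ifngr1 and the defining markers were chosen after their values were seen. The members and lists were chosen with earlier results of these data known, and some list genes are not reported here. Promoters come from RefSeq (GRCm38.p6), gene positions from GENCODE M21.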

Additional observations from a re-analysis of the deposited data

Results flagged for a closer look

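In 40 groups of 4 libraries (10 members, 4 groups of the first cohort), 3 held a library far from the other 3 by Dixon's test at the 95% level, which chance gives in about 1 group of 20. H2-Eb1 in KO total MPPs was 8.97 FPKM in library 3, against 14.0 to 14.2 FPKM in the other KO libraries. H2-DMa in KO total MPPs was 95.3 FPKM in the same library, against 122.8 to 125.98 FPKM in the other KO libraries. H2-DMb1 in WT total HSCs was 36.6 FPKM in library 4, against 29.6 to 30.6 FPKM in the other WT libraries. Groups of 3 libraries were not checked.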

How the results depend on the processing

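Under 6 alternative settings and with each library left out, 635 of 681 values of the 54 member comparisons kept their sign and their side of the threshold. H2-Aa, H2-Ab1, H2-Eb1 and Cd74 were negative in all H2B-GFP populations under each of them. Signs turned in 41 values, of H2-Oa, H2-Ob, the H2-DM genes and Cd74 in total HSCs, all close to 0. With library quality weights H2-Ob came to 0.084 in total HSCs, 0.062 and 0.058 in GFP-high and GFP-low MPPs, and H2-DMb2 and H2-Oa in GFP-low MPPs to 0.066 and 0.14. With libraries rescaled to one total, H2-DMb2 and H2-Oa in GFP-low MPPs came to 0.0092 and 0.040. Leaving out 1 library moved these differences over the following ranges. Cd74 in total HSCs ran over -0.12 to 0.089. H2-DMa ran over -0.43 to 0.012 in GFP-low HSCs and -0.34 to 0.038 in GFP-high MPPs, and H2-DMb1 over -0.54 to 0.045 and -0.35 to 0.021 there. H2-DMb2 ran over -0.29 to 0.14 in GFP-high and -0.28 to 0.092 in GFP-low HSCs, and -0.32 to 0.034 in GFP-high and -0.24 to 0.13 in GFP-low MPPs. H2-Oa ran over -0.14 to 0.25 in total MPPs, -0.019 to 0.28 in GFP-high and -0.18 to 0.52 in GFP-low HSCs, and -0.054 to 0.36 in GFP-high and -0.30 to 0.16 in GFP-low MPPs. H2-Ob ran over -0.17 to 0.056 in total HSCs, -0.040 to 0.19 in total MPPs, -0.031 to 0.26 in GFP-high and -0.090 to 0.50 in GFP-low HSCs, and -0.27 to 0.069 in GFP-high and -0.42 to 0.13 in GFP-low MPPs. The cause of these turns was not tested.

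The count of all genes past the threshold was 17 in total HSCs, and 2 without the filter, 10 with the replicate block, 6 with rescaled libraries and 33 with quality weights. In total MPPs it was 15, and 7 with the constant 0.1, 0 without the filter, 137 with the block and 247 with quality weights. Quality weights gave 5 in place of 3 in GFP-high HSCs and 3 in place of 0 in GFP-low HSCs. In GFP-low MPPs it was 34, and 2 without the filter, 52 with the block and 12 without the trend. Leaving out 1 library gave 9 to 17, 0 to 205, 0 to 1, 0 to 6, 0 to 1 and 0 to 31 genes in total HSCs, total MPPs, GFP-high HSCs, GFP-low HSCs, GFP-high MPPs and GFP-low MPPs. The members' median then ran over -0.35 to -0.27, -0.33 to -0.09, -0.38 to -0.13, -0.63 to -0.13, -0.35 to -0.22 and -0.65 to -0.25 in that order.

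Over all tested genes replicate numbers did not pair KO with WT libraries. Same-number correlations of deviations from the group means were -0.116 to 0.285, with 4 of 20 over 0.1 and the own number best in 5 of 20. The chains did vary with the number in the H2B-GFP cohort, where library 3 was lowest in 8 of 8 groups for H2-Aa, H2-Ab1 and H2-Eb1. Fitted as a replicate block all the same, the numbers brought 5 member comparisons past the threshold (0.0184% of all genes in GFP-high HSCs and 0.49% in GFP-low MPPs), with limma's adjusted p of 0.0253 for H2-Eb1 and 0.0347 for Cd74 in GFP-high HSCs, and of 0.0160 for H2-Aa, 0.0159 for H2-Eb1 and 0.0373 for Cd74 in GFP-low MPPs. Without the block the adjusted p of H2-Eb1 in GFP-high HSCs was 0.275 to 0.622 over all other settings. Depth limits Ciita and H2-DMb2 most.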
